A study of Homo sapiens with 36 samples.

Results

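The genes described here are 10 members of the NF-kB system, found by symbol in a gene count table of 37549 named genes: the 5 NF-kB subunits NFKB1, NFKB2, REL, RELA and RELB, the inhibitors NFKBIA and NFKBIE, and the feedback genes TNFAIP3, BIRC3 and TRAF1. All 10 were tested in every comparison. The table holds 36 RNA-sequencing libraries from the human B-cell lines MEC1, JVM2 and EHEB, 3 libraries for each of 12 groups. Cells received DMSO as the vehicle, 50 µM fludarabine, 5 µM ibrutinib or 10 µM idelalisib, for 48 hours in MEC1, 72 hours in JVM2 and 96 hours in EHEB. Fludarabine is a purine analogue that stops DNA synthesis, ibrutinib inhibits the kinase BTK of the B-cell receptor pathway, and idelalisib inhibits the delta isoform of PI3-kinase. MEC1 carries mutated p53, whereas JVM2 and EHEB carry wild-type p53. The 3 lines carry Epstein-Barr virus, whose latent membrane protein signals to NF-kB, which limits them as models of primary leukaemic cells. Each line had 1 exposure time, so line and time cannot be told apart. Libraries of a group are named here by their order in the labels. They were treated in triplicate. The paper states in general that its results, apart from glucuronidation assays, come from 3 or more independent experiments. It does not say whether each of these libraries came from a separate culture. The p values therefore measure the spread between these libraries, which may be technical.

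NF-kB transcription factors are dimers of the 5 subunits, held in the cytoplasm by inhibitor (IkB) proteins. A signal from the B-cell receptor passes through BTK and PI3-kinase, protein kinase C beta and the BCL10 and MALT1 adaptors to the IkB kinase, which marks the IkB protein for degradation and frees the dimer. Receptors such as BAFF receptor and CD40 act through the processing of the NFKB2 precursor in the non-canonical branch. The genes of several inhibitors are themselves targets of NF-kB, so that the pathway limits its own activity.

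Reference promoters are shown first for 4 members, because these genes gave different patterns with the drugs. They were taken from RefSeq (GRCh38.p14), run 5′ to 3′ on the gene's strand from 250 bases before to 50 bases after a start site, and carry matches to the NF-kB consensus motif in capitals, both strands searched. NFKBIA and TNFAIP3 encode inhibitors of the pathway, NFKB2 a subunit of the non-canonical branch and TRAF1 a signalling adaptor.
NFKBIA (chr14:35404700-35404999, minus strand): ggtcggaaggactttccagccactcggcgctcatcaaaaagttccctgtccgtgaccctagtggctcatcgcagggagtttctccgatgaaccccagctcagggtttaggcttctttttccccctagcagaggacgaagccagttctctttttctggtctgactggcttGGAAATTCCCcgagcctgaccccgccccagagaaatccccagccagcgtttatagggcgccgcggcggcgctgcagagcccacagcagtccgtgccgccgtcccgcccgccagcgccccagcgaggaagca
TNFAIP3 (chr6:137867009-137867308, plus strand): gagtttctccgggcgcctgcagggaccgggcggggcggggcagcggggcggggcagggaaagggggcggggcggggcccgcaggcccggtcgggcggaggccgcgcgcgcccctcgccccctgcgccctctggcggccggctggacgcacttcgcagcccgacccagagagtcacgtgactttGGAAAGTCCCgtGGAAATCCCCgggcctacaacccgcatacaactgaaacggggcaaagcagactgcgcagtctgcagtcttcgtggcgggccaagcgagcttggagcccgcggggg
NFKB2 (chr10:102394328-102394627, plus strand): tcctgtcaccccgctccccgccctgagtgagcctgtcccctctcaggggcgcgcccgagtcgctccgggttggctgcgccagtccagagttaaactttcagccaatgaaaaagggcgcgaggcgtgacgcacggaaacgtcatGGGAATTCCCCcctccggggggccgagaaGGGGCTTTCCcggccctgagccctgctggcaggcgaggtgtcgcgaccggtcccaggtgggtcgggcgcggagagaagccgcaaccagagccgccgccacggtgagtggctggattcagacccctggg
TRAF1 (chr9:120929122-120929421, minus strand): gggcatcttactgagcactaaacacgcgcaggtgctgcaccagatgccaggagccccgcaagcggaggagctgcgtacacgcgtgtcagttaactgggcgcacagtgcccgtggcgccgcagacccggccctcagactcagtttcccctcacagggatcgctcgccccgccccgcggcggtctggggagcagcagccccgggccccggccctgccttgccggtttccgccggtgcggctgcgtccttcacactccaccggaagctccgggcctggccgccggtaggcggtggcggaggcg
The NFKBIA window held 1 match at bases −81 to −72 from the start site. The TNFAIP3 window held 2 matches, at −67 to −58 and at −55 to −46. In the printed NFKB2 window 3 matches were found, of which those at −107 to −98 and −106 to −97 overlap and the other lies at −78 to −69. Another window of NFKB2 held 2 matches, at −176 to −167 and −21 to −12, and a further window held 0. No match was found in the printed TRAF1 window or in the other 2 windows of this gene. RefSeq windows were matched for 8 of the 10 members, and 6 of these 8 held the motif in at least 1 window, against 13.3% of all genes with a window and 11.3% of all 35116 windows. Besides the 3 genes shown, NFKB1 (−49 to −40), REL (−47 to −37, overlapping matches) and BIRC3 (−199 to −190 and −135 to −126) carried it, and RELA did not. A second window of NFKB1 held 0 matches. These matches describe the reference sequence and were not tested for binding.

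Library totals ranged from 26590705 to 53538925 counts (median 42114146), and the members had between 1120 and 39393 counts in a library, and libraries of a group differed by more than counting error. The B-cell origin of the lines was visible in the markers MS4A1, CD79A, CD79B, CD22 and PAX5, which were detected in each line. They summed to between 665 and 1645 CPM, which are counts scaled to a common library total. For the markers this scaling used the library size alone, whereas CPM of the members below also used TMM factors (trimmed mean of M values). Marker sums of other cells were low, at 0 to 15.6 CPM for T cells, 0.370 to 14.4 CPM for monocytes and 3.48 to 81.1 CPM for stromal cells. With fludarabine the summed B-cell markers were at 868 to 948 CPM in EHEB, against 1433 to 1478 CPM with DMSO, and at 665 to 691 CPM in JVM2, against 1077 to 1124 CPM. The T-cell sum was at 5.49 to 6.46 CPM with fludarabine in MEC1 (DMSO 0.531 to 0.971 CPM). Over the libraries of MEC1, CD3D was at 0, while CD3E, CD2 and CD8A reached 1.47, 2.78 and 2.83 CPM. Monocyte markers summed to 13.4 to 14.4 CPM with fludarabine in EHEB (DMSO 2.95 to 3.48 CPM). Over the libraries of EHEB, LYZ and FCN1 were at 0, while S100A9 reached 12.4 CPM and S100A8 1.78 CPM. MEC1 had 5.04 to 7.23 CPM of monocyte markers with fludarabine and 0.431 to 0.878 CPM with DMSO. Stromal markers, mostly PDGFRB in JVM2, summed to 25.0 to 28.1 CPM with fludarabine and 68.6 to 75.3 CPM with DMSO in that line. Their sum was also lower with fludarabine in EHEB (3.48 to 5.23 CPM, DMSO 16.2 to 16.7 CPM) and was higher with it in MEC1 (19.9 to 22.2 CPM, DMSO 6.31 to 8.22 CPM). The kinase inhibitors moved the B-cell sum in MEC1 from 876 to 956 CPM with DMSO to 1463 to 1645 CPM with ibrutinib and 1307 to 1387 CPM with idelalisib. The part of these shifts in the results below was not tested. The libraries of both kinase inhibitors carry numbers of a separate series that holds no DMSO library, so that series and drug cannot be told apart.

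In vehicle-treated cells TRAF1, TNFAIP3 and both inhibitors were lower in MEC1 than in the other lines. TRAF1, an adaptor bound to TNF receptors, was at 17.0 ± 0.546 CPM per kb of exon (mean ± SD, n = 3) in MEC1, 66.4 ± 4.07 in JVM2 and 107 ± 1.64 in EHEB. TNFAIP3, which encodes the ubiquitin-editing enzyme A20, followed the same order with 20.2 ± 1.35, 69.7 ± 0.390 and 104 ± 2.87. The plot of vehicle levels shows that the distance between lines was smaller for the subunits.

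**Figure D1:**
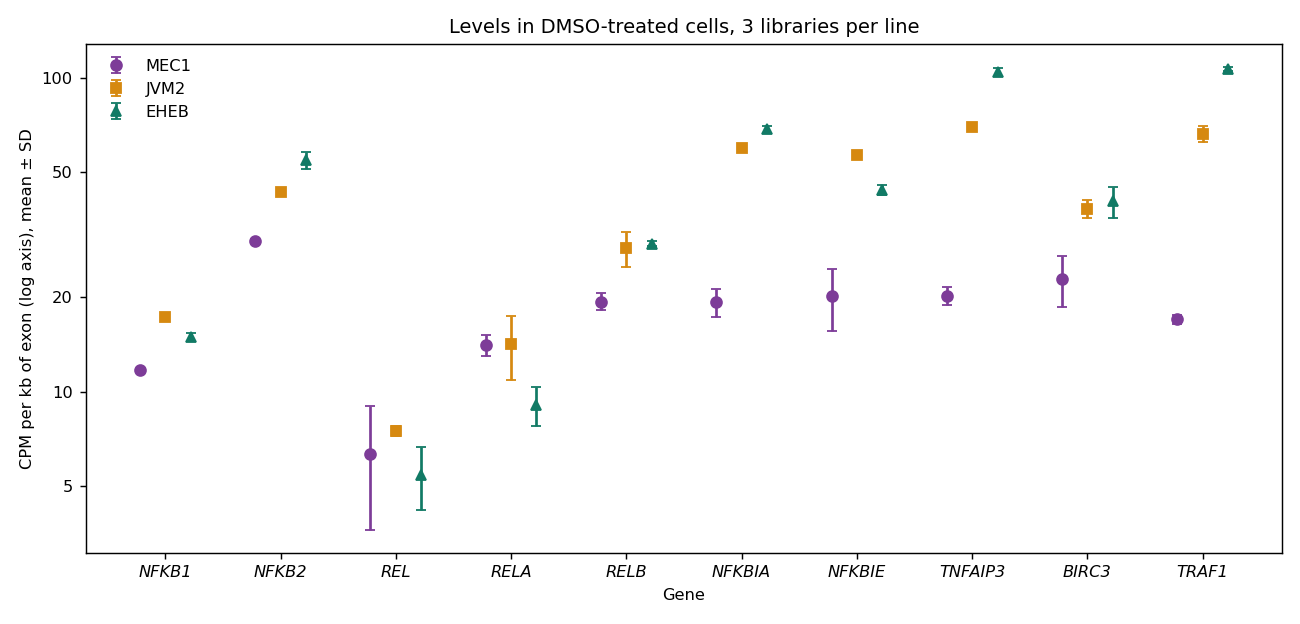
Levels of the 10 members in DMSO-treated cells, as CPM per kb of exon on a log axis, with the mean and SD of 3 libraries for each line. TRAF1 and TNFAIP3 lie at 107 and 104 in EHEB and at 17.0 and 20.2 in MEC1, whereas REL lies lowest in each line.

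The log2 difference of MEC1 minus JVM2, from the edgeR quasi-likelihood test, was −1.96 ± 0.055 (SE, adjusted p = 7.54e-09) for TRAF1, −1.79 ± 0.055 (SE, adjusted p = 1.28e-08) for TNFAIP3 and −1.63 ± 0.072 (SE, adjusted p = 1.07e-07) for NFKBIA. NFKBIE, another IkB gene, differed by −1.497 ± 0.14 (SE, adjusted p = 1.56e-05). Against EHEB the differences of MEC1 were −2.65 ± 0.056 (SE, adjusted p = 1.94e-09) for TRAF1 and −2.37 ± 0.056 (SE, adjusted p = 2.99e-09) for TNFAIP3. RELA, the p65 subunit of the canonical dimer, was the member with an opposite call, higher in MEC1 than in EHEB by 0.63 ± 0.16 (SE, adjusted p = 0.00735).
Of the 10 members, 8 were called lower in MEC1 than in JVM2 and 0 higher by edgeR. All 10 differences were below 0, so that 0 were higher at an unadjusted p under 0.05, and DESeq2 and limma-voom called none higher. Of all genes, 33.7% were called lower and 30.1% higher. Against EHEB, 8 were lower and 1 higher in MEC1, with 35.8% and 31.6% of all genes. Between EHEB and JVM2, 4 members were higher in EHEB and 3 lower, with 29.9% and 29.6% of all genes. Of these 7, NFKBIE (−0.37 ± 0.14, SE, adjusted p = 0.0441) lost its call without any 1 of the 6 libraries of this pair (adjusted p from 0.0744 to 0.129), and NFKBIA (0.20 ± 0.070, SE, adjusted p = 0.0375) lost it without any of them but the third of EHEB (0.0646 to 0.110). Both were also lost without the filter on low counts (0.0646 and 0.0513), and NFKBIE under library size scaling (0.0615). REL, which did not differ by the test between MEC1 and JVM2, was called lower in MEC1 without the second DMSO library of MEC1 (−0.65, adjusted p = 0.0131). The median member difference was −0.66 for MEC1 against JVM2, −0.84 for MEC1 against EHEB and 0.063 for EHEB against JVM2, beside medians over all genes of −0.015, −0.051 and 0.0030.
Within MEC1, NFKB2 was first with 30.2 ± 0.516 CPM per kb and REL last with 6.31 ± 2.68. The libraries of the neighbours from BIRC3 (22.8 ± 4.19) down to TRAF1 overlapped, so that their order was not resolved. In JVM2 the order began with TNFAIP3 and TRAF1, which overlapped, followed without overlap by NFKBIA (59.7 ± 1.35) and NFKBIE (56.7 ± 1.299). In EHEB it began with TRAF1 and TNFAIP3, again overlapping, then NFKBIA (68.5 ± 1.89) and NFKB2 (54.6 ± 3.27). With the longest transcript of GENCODE release 44 in place of all exons, NFKB1 moved from the ninth place to the second in MEC1, so these orders depend on the length used.

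Most members, like most genes, differed by treatment in each line. Tested over the 4 treatments at once, 9 of 10 members were called in MEC1, 8 in JVM2 and 9 in EHEB, where 70.1%, 61.2% and 52.9% of all genes were called. The members had at least 1120 counts in a library, while the filter on all genes used a minimum count of 10. Shares of all genes, here and below, were not matched to the members by count. BIRC3 (adjusted p = 0.0683) was not called in MEC1, RELA (adjusted p = 0.175) and BIRC3 (adjusted p = 0.696) were not called in JVM2, and REL (adjusted p = 0.406) was not called in EHEB. Without 1 library, REL lost its call in JVM2 (adjusted p = 0.0512 and 0.0535 without the first or the second ibrutinib library) and RELA in EHEB (0.0535 to 0.0619 without any 1 of 6 libraries), while BIRC3 in MEC1 was called by DESeq2 (0.0253) and under library size scaling (0.00320). In bulk RNA a change in the share of cells that express a gene and a change in RNA per cell cannot be told apart.

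**Figure D2:**
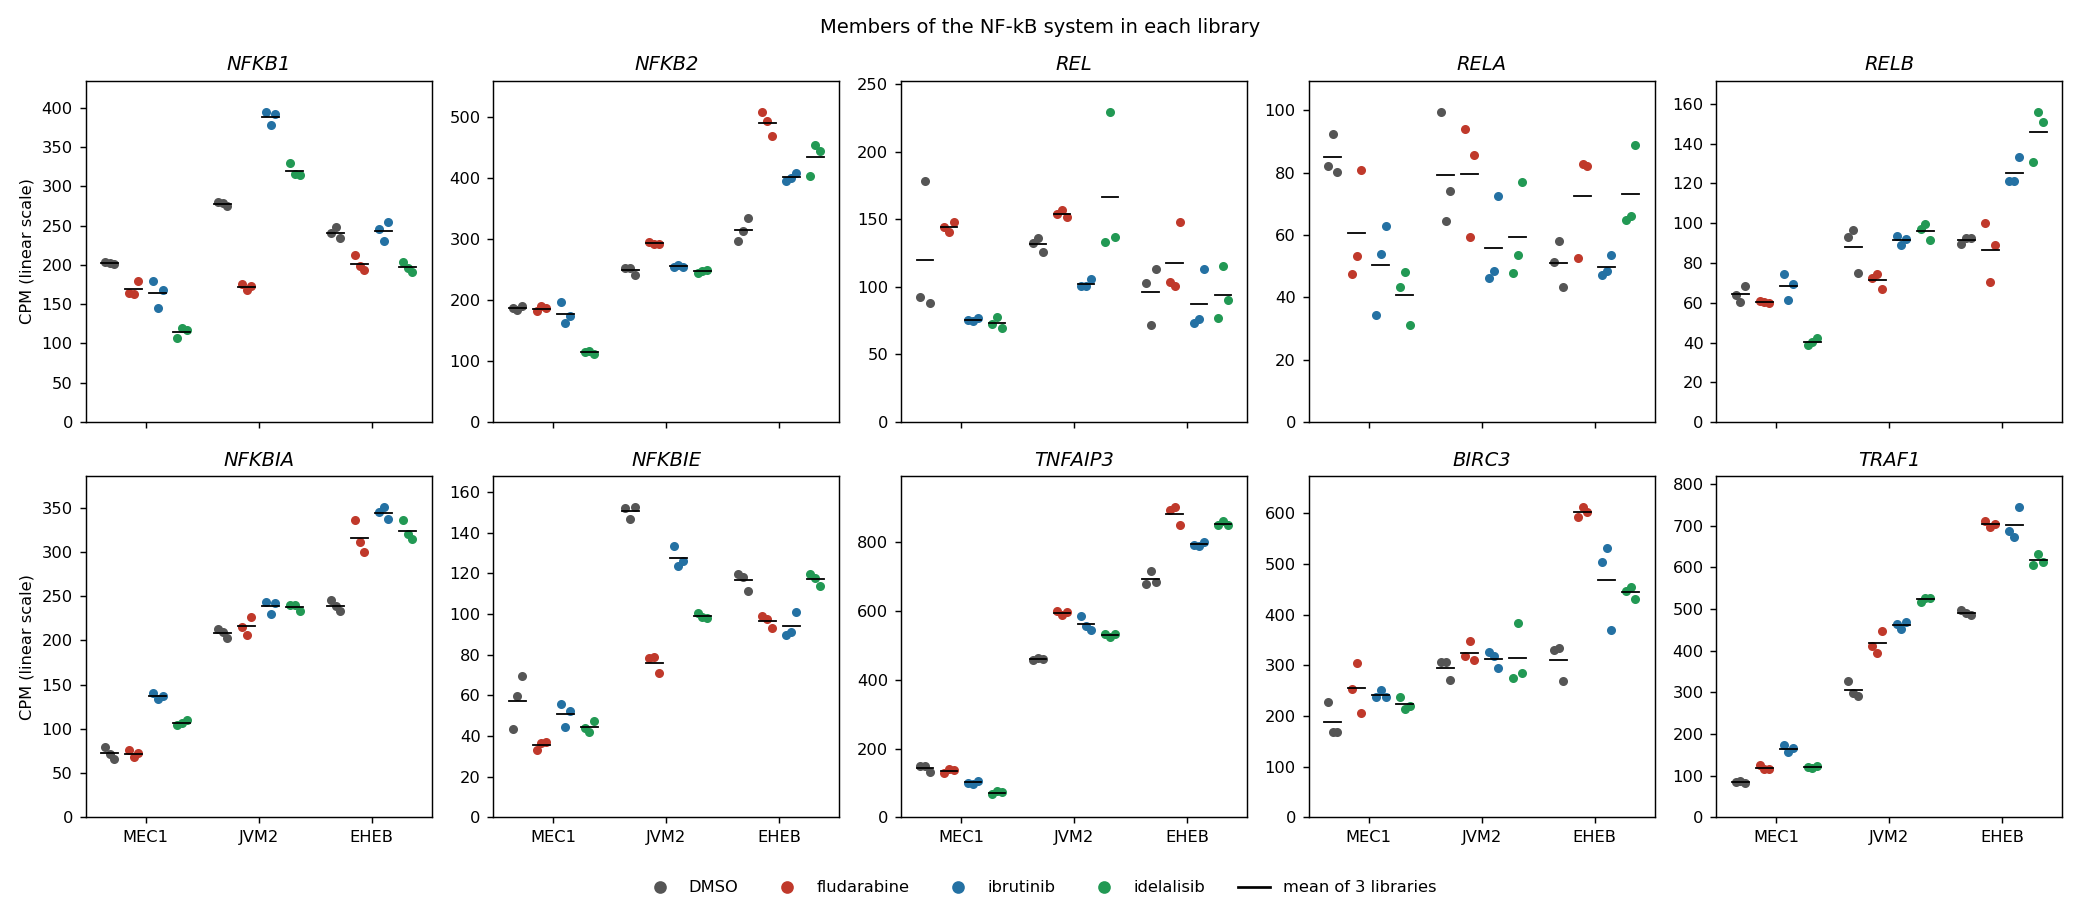
CPM of each member in the 36 libraries on linear axes from 0, with 1 panel per gene, the lines along the x axis, the treatments by colour and a bar at the mean of 3 libraries. Points of TRAF1, NFKBIA and TNFAIP3 lie close together within a group, while those of REL and RELA scatter.

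The direction of the calls varied by line, and each difference between lines is tested further on. With idelalisib in MEC1, 6 members fell and 2 rose, against 27.4% of all genes called lower and 27.6% called higher. With idelalisib in EHEB, 7 members rose and 1 fell, against 15.1% and 18.2%. In JVM2 the same drug raised 4 members and lowered 1 (21.6% and 22.6% of all genes).
With ibrutinib, 2 members rose and 4 fell in MEC1 (23.7% and 23.9% of all genes), 4 rose and 1 fell in JVM2 (14.5% and 15.0%), and 6 rose and 1 fell in EHEB (8.5% and 11.2%). With fludarabine, 2 rose and 2 fell in MEC1 (21.2% and 22.7%), 3 rose and 3 fell in JVM2 (23.9% and 23.3%), and 6 rose and 2 fell in EHEB (18.4% and 19.2%).
The median log2 change of the members against that of all genes was −0.048 against 0.056 with fludarabine, −0.12 against 0.060 with ibrutinib and −0.69 against 0.081 with idelalisib in MEC1. In JVM2 these pairs were 0.10 against 0.056, 0.071 against −0.0014 and 0.16 against 0.026, and in EHEB 0.37 against 0.020, 0.28 against 0.0095 and 0.38 against 0.013. The 3 comparisons of a line share its DMSO libraries and are therefore not independent of each other.

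**Figure D3:**
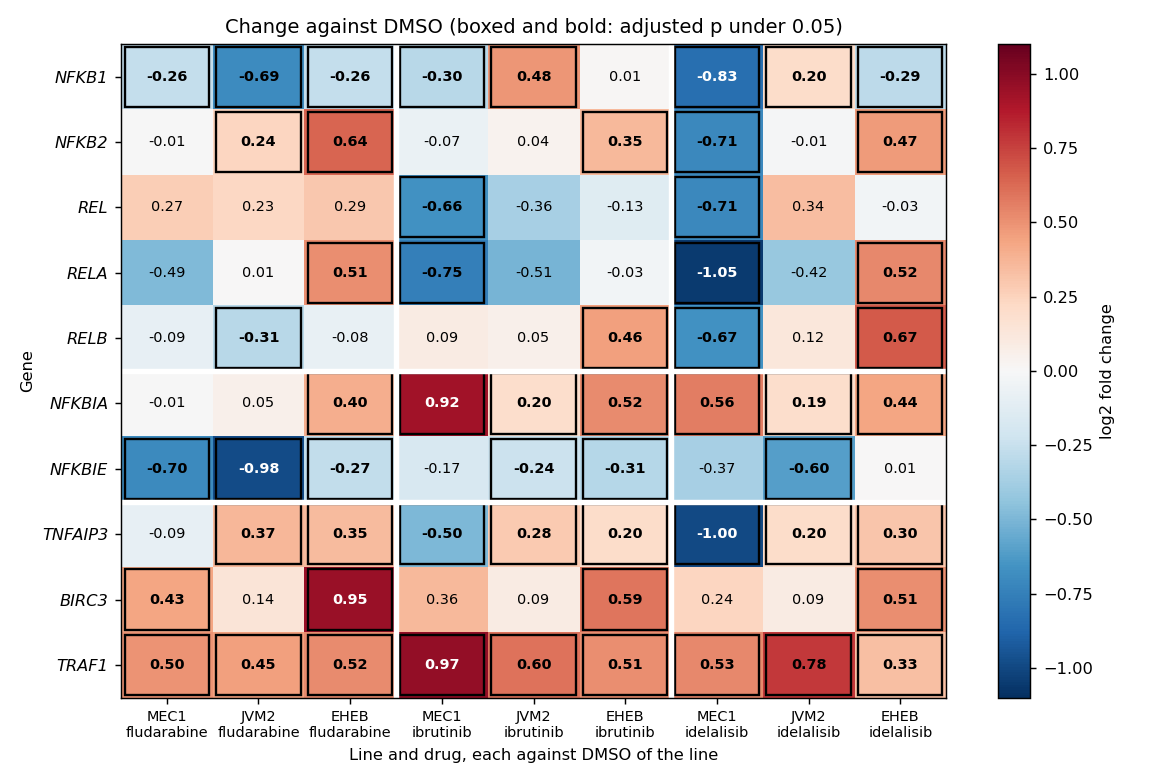
Log2 fold change of each member against DMSO of its line, with genes in rows, the 9 combinations of drug and line in columns and colour for the size. Boxed bold values had an adjusted p under 0.05 in edgeR, and the row of TRAF1 is boxed and positive throughout while that of TNFAIP3 changes sign between MEC1 with the kinase inhibitors and the other lines.

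Scaling by library size alone, in place of TMM, moved the median change of all genes from 0.056 to 0.31 with fludarabine in MEC1 and from 0.056 to 0.26 in JVM2, and the share of higher genes among those called from 48.4% to 74.1% and from 50.6% to 69.1%. This share also moved by over 10 points from 49.1% to 62.2% with ibrutinib and from 48.8% to 59.5% with idelalisib in JVM2, and from 48.9% to 61.8%, 43.1% to 65.4% and 45.3% to 59.6% with fludarabine, ibrutinib and idelalisib in EHEB. Member changes are therefore given relative to TMM, and those that lost their call under library size are named with the gene.

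NFKB1 encodes p105, the precursor of the p50 subunit (ENSG00000109320.14, chromosome 4, 102501330 to 102617302, plus strand). In MEC1 it was at 204, 203 and 202 CPM with DMSO, 164, 163 and 179 with fludarabine, 179, 146 and 168 with ibrutinib and 106, 119 and 118 with idelalisib. All 9 treated libraries of MEC1 lay below the 3 DMSO libraries. The log2 change was −0.26 ± 0.079 (SE, adjusted p = 0.0179) with fludarabine, −0.30 ± 0.079 (SE, adjusted p = 0.00816) with ibrutinib and −0.83 ± 0.079 (SE, adjusted p = 5.31e-06) with idelalisib.
In JVM2, NFKB1 was at 279.6, 279 and 276 CPM with DMSO, 176, 168 and 173 with fludarabine, 395, 378 and 391.7 with ibrutinib and 329.7, 316 and 314 with idelalisib, 4 ranges that do not overlap. The change was −0.69 ± 0.037 (SE, adjusted p = 7.43e-08) with fludarabine, 0.48 ± 0.036 (SE, adjusted p = 8.7e-06) with ibrutinib and 0.20 ± 0.036 (SE, adjusted p = 0.000991) with idelalisib. The kinase inhibitors thus moved NFKB1 in opposite directions in JVM2 and MEC1.
In EHEB, NFKB1 had 240.2, 249 and 235 CPM with DMSO, 212, 199 and 193 with fludarabine, 245, 230.1 and 255 with ibrutinib and 203, 197 and 190.9 with idelalisib. Fludarabine and idelalisib lowered it without overlap with DMSO, with changes of −0.26 ± 0.054 (SE, adjusted p = 0.0028) and −0.29 ± 0.054 (SE, adjusted p = 0.00163), and ibrutinib gave 0.015 ± 0.054 (SE, adjusted p = 0.889). The fall with fludarabine in MEC1 was −0.015 (adjusted p = 0.898) under library size scaling and −0.17 (adjusted p = 0.0652) over genes with a mean of at least 5 CPM. It was also lost without the first or the second library of MEC1 fludarabine (adjusted p = 0.0574 and 0.0592).

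NFKB2 encodes p100, the precursor of p52 and an inhibitor of RELB dimers until it is processed (ENSG00000077150.21, chromosome 10, 102394110 to 102402524, plus strand). It moved in opposite directions with idelalisib in MEC1 and EHEB. In MEC1 it was at 187, 183.7 and 190.3 CPM with DMSO, 181, 189.6 and 186.5 with fludarabine, 196, 162 and 174 with ibrutinib and 114, 116.96 and 112 with idelalisib. Only the idelalisib libraries left the DMSO range altogether, with a change of −0.71 ± 0.066 (SE, adjusted p = 4.26e-06), while fludarabine gave −0.0078 ± 0.066 (SE, adjusted p = 0.936) and ibrutinib −0.075 ± 0.066 (SE, adjusted p = 0.374).
In EHEB the values were 296, 312 and 333 CPM with DMSO, 508, 494 and 469 with fludarabine, 396, 399.9 and 408 with ibrutinib and 403, 454 and 443 with idelalisib, and each drug raised the gene above all DMSO libraries. The changes were 0.64 ± 0.059 (SE, adjusted p = 6.93e-06), 0.35 ± 0.058 (SE, adjusted p = 0.00164) and 0.47 ± 0.058 (SE, adjusted p = 0.000111). In JVM2, with 252, 253 and 241 CPM for DMSO, fludarabine (296, 292 and 291 CPM) raised NFKB2 by 0.24 ± 0.033 (SE, adjusted p = 0.000151). Ibrutinib (0.038 ± 0.033, SE, adjusted p = 0.443) and idelalisib (−0.010 ± 0.033, SE, adjusted p = 0.832) did not pass the test in JVM2, at 254, 258 and 254 and 245, 247 and 249 CPM, although the former libraries lay above all DMSO libraries. With library size scaling the value for fludarabine in MEC1 became 0.24 (adjusted p = 0.0215), and the rise in JVM2 became 0.44.

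RELB is the partner of p52 in the non-canonical branch (ENSG00000104856.15, chromosome 19, 45001461 to 45038192, plus strand). Its largest movements were with idelalisib, down in MEC1 and up in EHEB. In MEC1 it was at 64.1, 60.3 and 68.3 CPM with DMSO and 38.9, 40.2 and 42.0 with idelalisib, a change of −0.67 ± 0.077 (SE, adjusted p = 2.13e-05). In EHEB it was at 89.4, 92.6 and 92.3 CPM with DMSO, 121, 121 and 133.5 with ibrutinib and 131, 156 and 151 with idelalisib, and both drugs lay above DMSO while overlapping with each other. The EHEB changes were 0.46 ± 0.11 (SE, adjusted p = 0.0154) and 0.67 ± 0.11 (SE, adjusted p = 0.000817), the former with an adjusted p of 0.0502 without the first DMSO library.
JVM2 showed 93.2, 96.5 and 75.1 CPM with DMSO, where the third library was lowest, and 72.6, 74.5 and 67.1 with fludarabine, a change of −0.31 ± 0.086 (SE, adjusted p = 0.0127). This fall was −0.11 (adjusted p = 0.331) under library size scaling and had an adjusted p of 0.0566 without the second DMSO library. The other comparisons of RELB did not pass, with log2 changes of −0.088 and 0.089 for fludarabine and ibrutinib in MEC1, 0.053 and 0.12 for the kinase inhibitors in JVM2, and −0.079 for fludarabine in EHEB.

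REL, the c-Rel subunit that predominates in lymphocytes (ENSG00000162924.16, chromosome 2, 60881491 to 60931612, plus strand), and RELA, the p65 subunit (ENSG00000173039.20, chromosome 11, 65653599 to 65663090, minus strand), were the members with the widest spread between libraries of a group. The median coefficient of variation over the 12 groups was 13.3% for REL and 22.7% for RELA, against 2.67% for TRAF1 and 2.31% for NFKB2. In the GENCODE annotation REL shares 5702 bases of exon on its own strand with the noncoding gene ENSG00000267520, RELA shares 103 exon bases with RELA-DT on the opposite strand, and strand was not stated for the counting. The part of these overlaps in the spread was not tested.
In MEC1, REL was at 92.6, 178 and 88.0 CPM with DMSO, 144.2, 140.5 and 148 with fludarabine, 75.2, 74.96 and 76.7 with ibrutinib and 72.4, 77.5 and 69.3 with idelalisib. The second DMSO library stood far above the others of its group. The changes were −0.66 ± 0.21 (SE, adjusted p = 0.0228) with ibrutinib, −0.71 ± 0.21 (SE, adjusted p = 0.0137) with idelalisib and 0.27 ± 0.21 (SE, adjusted p = 0.328) with fludarabine. Without that library the falls were −0.26 (adjusted p = 0.00818) and −0.31 (adjusted p = 0.00237), and fludarabine gave a rise of 0.67 (adjusted p = 3.00e-05). The fall with ibrutinib lost its call without any 1 of the 3 libraries of that group (adjusted p from 0.0505 to 0.0623). In fits of the 6 libraries of each comparison alone neither fall passed (adjusted p = 0.0787 and 0.0532).
In JVM2, REL was at 132, 136 and 126 CPM with DMSO, 154, 157 and 152 with fludarabine, 101, 101 and 106 with ibrutinib and 133.3, 229 and 137 with idelalisib. The fludarabine libraries lay above and the ibrutinib libraries below all DMSO libraries, yet the changes of 0.23 ± 0.17 (SE, adjusted p = 0.284) and −0.36 ± 0.17 (SE, adjusted p = 0.132) did not pass. In fits of the 6 libraries of each comparison alone both passed (adjusted p = 0.00784 and 0.00313). The second idelalisib library stood apart from the other 2 of its group, and the change of 0.34 ± 0.17 (SE, adjusted p = 0.121) was 0.049 without it, while it was called without the first or the third (0.49 and 0.47). In EHEB the libraries of all 4 groups overlapped, between 71.6 and 148 CPM, and no change passed (0.29, −0.13 and −0.028 with fludarabine, ibrutinib and idelalisib).
RELA in MEC1 was at 82.0, 92.5 and 80.2 CPM with DMSO, 47.6, 53.4 and 80.9 with fludarabine, 34.2, 53.9 and 62.9 with ibrutinib and 43.2, 48.3 and 31.3 with idelalisib. Both kinase inhibitors lowered it without overlap with DMSO, with changes of −0.75 ± 0.25 (SE, adjusted p = 0.0252) and −1.05 ± 0.25 (SE, adjusted p = 0.00366), and the first of these was lost without the second DMSO library or the first or the second ibrutinib library (adjusted p from 0.0504 to 0.0797). Fludarabine gave −0.49 ± 0.24 (SE, adjusted p = 0.132), with an overlap through the third library, and −0.75 (adjusted p = 0.0316) without that library.
RELA in EHEB had 51.5, 58.0 and 43.4 CPM with DMSO, 52.5, 82.9 and 82.3 with fludarabine, 47.3, 48.4 and 53.7 with ibrutinib and 64.9, 66.0 and 89.0 with idelalisib. The rises of 0.51 ± 0.18 (SE, adjusted p = 0.0467) with fludarabine, which overlapped with DMSO, and of 0.52 ± 0.18 (SE, adjusted p = 0.046) with idelalisib lay close to the threshold and lost their call without the first or the third DMSO library. Both were also lost without the second or the third library of the drug, with adjusted p from 0.0566 to 0.179 over these fits. Neither passed without the filter on low counts (0.0862 and 0.0682) or in the joint fit of 36 libraries (0.127 and 0.114), and fludarabine not in a fit of 6 libraries (0.0809). JVM2 groups overlapped throughout, and no change of RELA passed there (0.0067, −0.51 and −0.42).

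NFKBIA encodes IkB alpha, the inhibitor that is degraded and resynthesised in the canonical response (ENSG00000100906.12, chromosome 14, 35401079 to 35404749, minus strand). It rose with both kinase inhibitors in each of the 3 lines, and with fludarabine in EHEB. In MEC1 it was at 80.0, 71.3 and 66.0 CPM with DMSO, 75.8, 68.2 and 72.5 with fludarabine, 141, 134.01 and 137 with ibrutinib and 104, 107 and 109.8 with idelalisib. The ibrutinib libraries were highest, the idelalisib libraries lay between them and DMSO, and the fludarabine libraries overlapped with DMSO. The changes were 0.92 ± 0.072 (SE, adjusted p = 2.03e-06) with ibrutinib, 0.56 ± 0.072 (SE, adjusted p = 4.87e-05) with idelalisib and −0.0060 ± 0.072 (SE, adjusted p = 0.955) with fludarabine.
In JVM2 the values were 213, 209 and 203 CPM with DMSO, 215, 206 and 227 with fludarabine, 244, 230.1 and 243 with ibrutinib and 239.6, 239.6 and 233.6 with idelalisib. Ibrutinib and idelalisib exceeded DMSO without overlap, with 0.20 ± 0.044 (SE, adjusted p = 0.00659) and 0.19 ± 0.044 (SE, adjusted p = 0.00501), and fludarabine gave 0.052 ± 0.044 (SE, adjusted p = 0.361). In EHEB they were 246, 238.3 and 233.5 CPM with DMSO, 336, 311 and 299 with fludarabine, 344, 350.2 and 338 with ibrutinib and 336, 321 and 314 with idelalisib. All 9 treated libraries of EHEB were above DMSO, by 0.40 ± 0.050 (SE, adjusted p = 8.54e-05), 0.52 ± 0.050 (SE, adjusted p = 4.79e-05) and 0.44 ± 0.050 (SE, adjusted p = 6.08e-05). The rises with kinase inhibitors kept their call in all alternatives run. As for the genes below, these alternatives cannot tell the drug apart from the separate library series of both inhibitors. With library size scaling, fludarabine was also called in MEC1 (0.24, adjusted p = 0.0212) and in JVM2 (0.25, adjusted p = 0.00394).

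NFKBIE encodes IkB epsilon, an inhibitor of dimers of c-Rel and p65 (ENSG00000146232.17, chromosome 6, 44258166 to 44265788, minus strand). In contrast to NFKBIA it fell with fludarabine in each line. In JVM2 it was at 152, 147 and 152 CPM with DMSO, 78.3, 78.8 and 71.2 with fludarabine, 133.7, 123 and 126 with ibrutinib and 100.5, 98.5 and 97.9 with idelalisib, and no group overlapped with another. The changes in JVM2 were −0.98 ± 0.051 (SE, adjusted p = 6e-08), −0.24 ± 0.050 (SE, adjusted p = 0.00481) and −0.60 ± 0.050 (SE, adjusted p = 3.97e-06), and that with ibrutinib had an adjusted p of 0.127 in the joint fit of 36 libraries.
EHEB had 119.9, 118 and 112 CPM with DMSO, 99.2, 97.6 and 93.0 with fludarabine, 89.7, 91.2 and 101 with ibrutinib and 119.6, 118 and 114 with idelalisib. Fludarabine and ibrutinib lowered it, with changes of −0.27 ± 0.058 (SE, adjusted p = 0.00331) and −0.31 ± 0.058 (SE, adjusted p = 0.00341), and the idelalisib libraries overlapped with DMSO (0.0076 ± 0.058, SE, adjusted p = 0.937). In MEC1, DMSO libraries spread from 43.5 to 69.4 CPM (43.5, 59.6 and 69.4), and the fludarabine libraries lay below them at 33.0, 36.4 and 37.1 CPM, a change of −0.70 ± 0.15 (SE, adjusted p = 0.00261). Ibrutinib (55.9, 44.6 and 52.5 CPM) and idelalisib (43.9, 42.2 and 47.5 CPM) overlapped with DMSO and gave −0.17 ± 0.15 (SE, adjusted p = 0.355) and −0.37 ± 0.15 (SE, adjusted p = 0.0518). Without the first DMSO library both were called, at −0.34 (adjusted p = 0.0313) and −0.54 (adjusted p = 0.00239), and idelalisib was also called by DESeq2 (adjusted p = 0.0361), in the joint fit of 36 libraries (0.00108) and under library size scaling (0.0180).

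TNFAIP3 encodes A20, which removes activating ubiquitin chains from the adaptors of the pathway (ENSG00000118503.18, chromosome 6, 137867214 to 137883314, plus strand). It fell with the kinase inhibitors in MEC1 and rose with all 3 drugs in JVM2 and EHEB. MEC1 libraries were at 149, 149 and 133.2 CPM with DMSO, 129, 139.7 and 137 with fludarabine, 101, 98.4 and 106 with ibrutinib and 67.6, 76.1 and 72.7 with idelalisib. The idelalisib libraries lay below those with ibrutinib, which lay below DMSO, while fludarabine overlapped with DMSO. The changes were −0.50 ± 0.067 (SE, adjusted p = 0.000106) with ibrutinib, −0.996 ± 0.068 (SE, adjusted p = 4.07e-07) with idelalisib and −0.087 ± 0.067 (SE, adjusted p = 0.318) with fludarabine.
JVM2 libraries were at 458, 464 and 461 CPM with DMSO, 601, 589 and 596 with fludarabine, 584, 555 and 546 with ibrutinib and 531, 524 and 532 with idelalisib, all 9 treated libraries above DMSO. The rises were 0.37 ± 0.034 (SE, adjusted p = 6.34e-06), 0.28 ± 0.034 (SE, adjusted p = 0.000148) and 0.20 ± 0.034 (SE, adjusted p = 0.000748). EHEB libraries were at 677, 716 and 683 CPM with DMSO, 894, 901 and 848 with fludarabine, 792, 789 and 801 with ibrutinib and 849.9, 859.9 and 848 with idelalisib, again without overlap with DMSO. The rises were 0.35 ± 0.039 (SE, adjusted p = 3.27e-05), 0.20 ± 0.039 (SE, adjusted p = 0.00461) and 0.30 ± 0.039 (SE, adjusted p = 0.000135). The annotation shows 95 exon bases shared with WAKMAR2 on the opposite strand. Each of these 8 calls held in all alternatives run, and no sign changed under library size scaling apart from the uncalled value for fludarabine in MEC1, which became 0.16.

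BIRC3 encodes cIAP2, a ubiquitin ligase that joins TNF receptor complexes and restrains the kinase of the non-canonical branch (ENSG00000023445.17, chromosome 11, 102317484 to 102339403, plus strand). Its changes were clearest in EHEB, at 331, 333 and 269.7 CPM with DMSO, 593, 611 and 602 with fludarabine, 504, 531 and 370.1 with ibrutinib and 446, 455 and 431 with idelalisib. The annotation shows 126 exon bases shared with ENSG00000288528 on the opposite strand. All treated libraries lay above DMSO, although the third ibrutinib library was far below the other 2 of its group. The rises were 0.95 ± 0.12 (SE, adjusted p = 8.45e-05), 0.59 ± 0.12 (SE, adjusted p = 0.00555) and 0.51 ± 0.12 (SE, adjusted p = 0.00677).
In MEC1, BIRC3 was at 228, 169 and 169 CPM with DMSO, 253, 304 and 207 with fludarabine, 237.7, 252 and 237.8 with ibrutinib and 237, 213 and 219 with idelalisib. The first DMSO library was above the other 2 of its group and overlapped with the fludarabine and idelalisib libraries. The rise with fludarabine was 0.43 ± 0.14 (SE, adjusted p = 0.0268), and its call was lost without the second or the third DMSO library or the first or the second fludarabine library (adjusted p from 0.0592 to 0.124, with 0.28 as the change without the last of these) and in a fit of the 6 libraries alone (adjusted p = 0.0758). Ibrutinib (0.36 ± 0.14, SE, adjusted p = 0.0535) and idelalisib (0.24 ± 0.14, SE, adjusted p = 0.166) did not pass, and both were called without the first DMSO library, at 0.51 (adjusted p = 0.00957) and 0.39 (adjusted p = 0.0279). The rise with ibrutinib was also called by DESeq2 (adjusted p = 0.0326) and limma-voom (0.0426), and both were called over genes with a mean of at least 5 CPM (0.0217 and 0.0455). JVM2 values lay between 271 and 383 CPM in all groups, and no change passed (0.14, 0.089 and 0.093 with fludarabine, ibrutinib and idelalisib), although library size scaling gave a call with fludarabine (0.34, adjusted p = 0.0265).

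TRAF1, the adaptor that brings BIRC3 protein to TNF receptors (ENSG00000056558.11, chromosome 9, 120902393 to 120929173, minus strand), was the member that rose with each drug in each line, as did 0.323% of the 15181 genes tested in all 9 comparisons. In MEC1 it was at 84.1, 87.1 and 81.8 CPM with DMSO, 126, 116 and 116 with fludarabine, 173, 156 and 166 with ibrutinib and 122, 119 and 123 with idelalisib. Ibrutinib libraries were the highest, without overlap with any other group of the line. The rises were 0.50 ± 0.058 (SE, adjusted p = 4.04e-05), 0.97 ± 0.058 (SE, adjusted p = 3.35e-07) and 0.53 ± 0.058 (SE, adjusted p = 1.51e-05).
In JVM2, TRAF1 was at 327, 297 and 292 CPM with DMSO, 412, 396 and 446 with fludarabine, 464, 452 and 469 with ibrutinib and 517, 527 and 526 with idelalisib. Here the order from DMSO upwards was fludarabine, ibrutinib and idelalisib without overlap, with rises of 0.45 ± 0.054 (SE, adjusted p = 4e-05), 0.60 ± 0.054 (SE, adjusted p = 2.49e-05) and 0.78 ± 0.054 (SE, adjusted p = 1.05e-06). In EHEB, with 499, 489 and 485 CPM for DMSO, 712, 696 and 705 for fludarabine, 687, 673 and 744 for ibrutinib and 606, 632 and 613 for idelalisib, the rises were 0.52 ± 0.044 (SE, adjusted p = 3.79e-06), 0.51 ± 0.044 (SE, adjusted p = 2.34e-05) and 0.33 ± 0.044 (SE, adjusted p = 0.00017). The spread of the gene was small, and all 9 calls held in all alternatives run, while comparisons within a line share DMSO libraries. With library size scaling the rise with fludarabine in MEC1 became 0.75.

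The 2 kinase inhibitors were then compared with each other within each line. In MEC1 idelalisib gave lower levels than ibrutinib for 6 members and higher levels for 0 by edgeR. All 10 differences were below 0, so that 0 were higher at an unadjusted p under 0.05, and DESeq2 and limma-voom called none higher. Of all genes, 9.37% were called lower and 6.01% higher. In JVM2, 2 members were higher and 2 lower (8.21% and 10.5% of all genes), and in EHEB 1 was higher and 2 were lower (6.77% and 9.09%). With library size scaling the share of higher genes among those called moved from 39.1% to 11.3% in MEC1.
The differences in MEC1, idelalisib minus ibrutinib in log2, were −0.76 ± 0.077 (SE, adjusted p = 0.000644) for RELB, −0.64 ± 0.066 (SE, adjusted p = 0.000662) for NFKB2 and −0.52 ± 0.079 (SE, adjusted p = 0.00221) for NFKB1. TNFAIP3 (−0.50 ± 0.067, SE, adjusted p = 0.00136), TRAF1 (−0.44 ± 0.058, SE, adjusted p = 0.00126) and NFKBIA (−0.36 ± 0.072, SE, adjusted p = 0.00771) were also lower with idelalisib. NFKB1 was the member that was lower with idelalisib in each line, with −0.28 ± 0.036 (SE, adjusted p = 0.000431) in JVM2 and −0.31 ± 0.054 (SE, adjusted p = 0.00289) in EHEB.
NFKBIE and TRAF1 had opposite differences in the other lines. NFKBIE was lower with idelalisib in JVM2 (−0.37 ± 0.050, SE, adjusted p = 0.00057) and higher in EHEB (0.32 ± 0.058, SE, adjusted p = 0.00358). TRAF1 was higher with idelalisib in JVM2 (0.18 ± 0.053, SE, adjusted p = 0.0388) and lower in EHEB (−0.19 ± 0.044, SE, adjusted p = 0.0142), but both of these small differences lost their call without the filter on low counts (adjusted p = 0.0539 and 0.0501). The one in JVM2 was lost under library size scaling (adjusted p = 0.0709), and the one in EHEB in a fit of 6 libraries (0.0847). The one in JVM2 was also lost without each library of the pair of groups (adjusted p from 0.0874 to 0.146), and the one in EHEB without the first or the third idelalisib library (adjusted p = 0.0647 and 0.0637). REL was higher with idelalisib in JVM2 (0.70 ± 0.17, SE, adjusted p = 0.014), and by 0.39 (adjusted p = 0.000891) without the second idelalisib library, and it did not pass in a fit of 6 libraries (adjusted p = 0.0665). In EHEB, RELA (0.56 ± 0.18, SE, adjusted p = 0.0625) and TNFAIP3 (0.10 ± 0.039, SE, adjusted p = 0.102) did not pass, but both were called by DESeq2 (adjusted p = 0.0152 and 0.0151). The doses of both drugs differed, so the values compare these exposures.

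**Figure D4:**
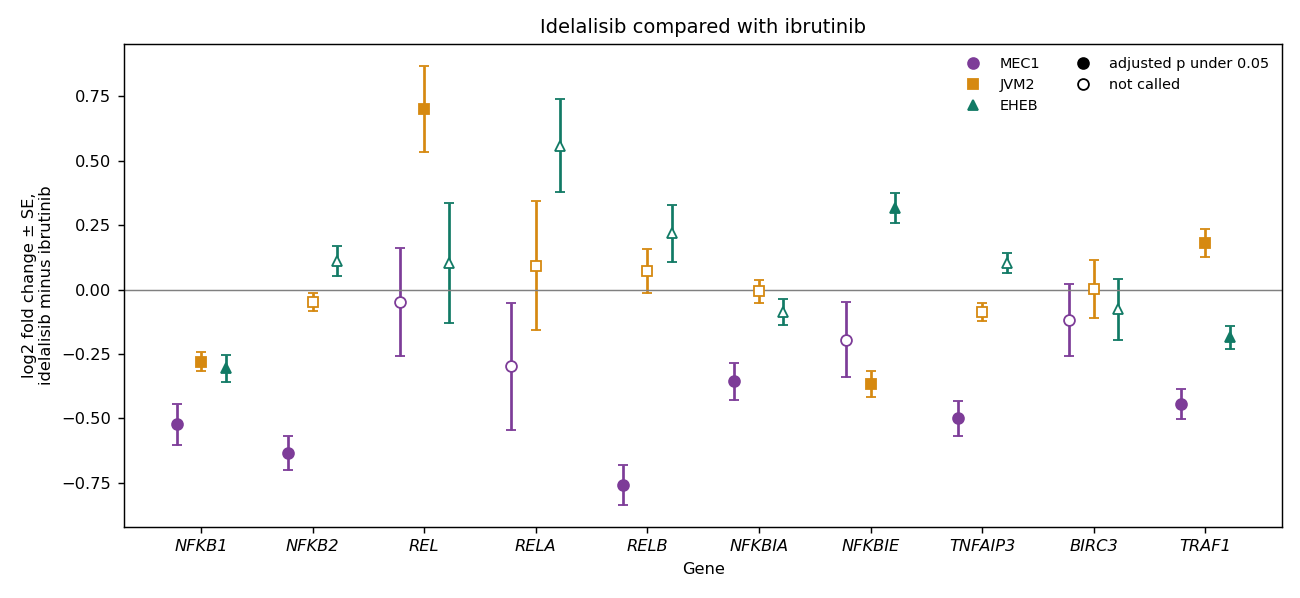
Difference between idelalisib and ibrutinib in log2 for each member, with its standard error, by line, with filled symbols for an adjusted p under 0.05. All filled symbols of MEC1 lie below 0, from −0.76 for RELB to −0.36 for NFKBIA.

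Whether a drug acted differently on a member in the 3 lines was tested as the interaction of line and treatment. For fludarabine 6 members were called, for ibrutinib 6 and for idelalisib 8, where 39.1%, 33.6% and 45.7% of all genes were called. With idelalisib REL (adjusted p = 0.0613) and BIRC3 (adjusted p = 0.184) did not pass, of which REL was called by DESeq2 (adjusted p = 0.0249), in the joint fit of 36 libraries (0.0141) and under library size scaling (0.0359). The call of RELB with ibrutinib (adjusted p = 0.0429) was lost without any 1 of 14 of the 18 libraries (adjusted p from 0.0533 to 0.117) and without the filter on low counts (0.114). The calls of NFKBIA with fludarabine and idelalisib were lost under library size scaling (0.0781 and 0.0622), the former also without the first EHEB fludarabine library (0.0627).
TNFAIP3 differed with idelalisib (adjusted p = 2.38e-09), and its change in MEC1 minus that in EHEB was −1.34 ± 0.075 (SE) and minus that in JVM2 −1.26 ± 0.075 (SE). For EHEB minus JVM2 the value was 0.085 ± 0.074 (SE). NFKB2 and RELB, both of the non-canonical branch, showed differences between MEC1 and EHEB of −1.22 ± 0.075 (SE) and −1.39 ± 0.13 (SE) with the same drug. The other subunits also lay below 0 in this difference, so it was not limited to that branch. It was −1.62 ± 0.29 (SE) for RELA, −0.58 ± 0.068 (SE) for NFKB1 and −0.73 ± 0.38 (SE) for REL, whose interaction was not called.
The rise of TRAF1 with fludarabine was not shown to differ between the lines (adjusted p = 0.755), with differences between pairs of lines of 0.073 ± 0.079 (SE) for MEC1 minus JVM2 and 0.047 ± 0.079 (SE) for MEC1 minus EHEB. With ibrutinib it was larger in MEC1 than in EHEB by 0.45 ± 0.082 (SE). The rise of NFKBIA with ibrutinib was larger in MEC1 than in JVM2 by 0.70 ± 0.085 (SE) and larger than in EHEB by 0.39 ± 0.085 (SE). The change of NFKBIE with ibrutinib was not shown to differ (adjusted p = 0.852).

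**Figure D5:**
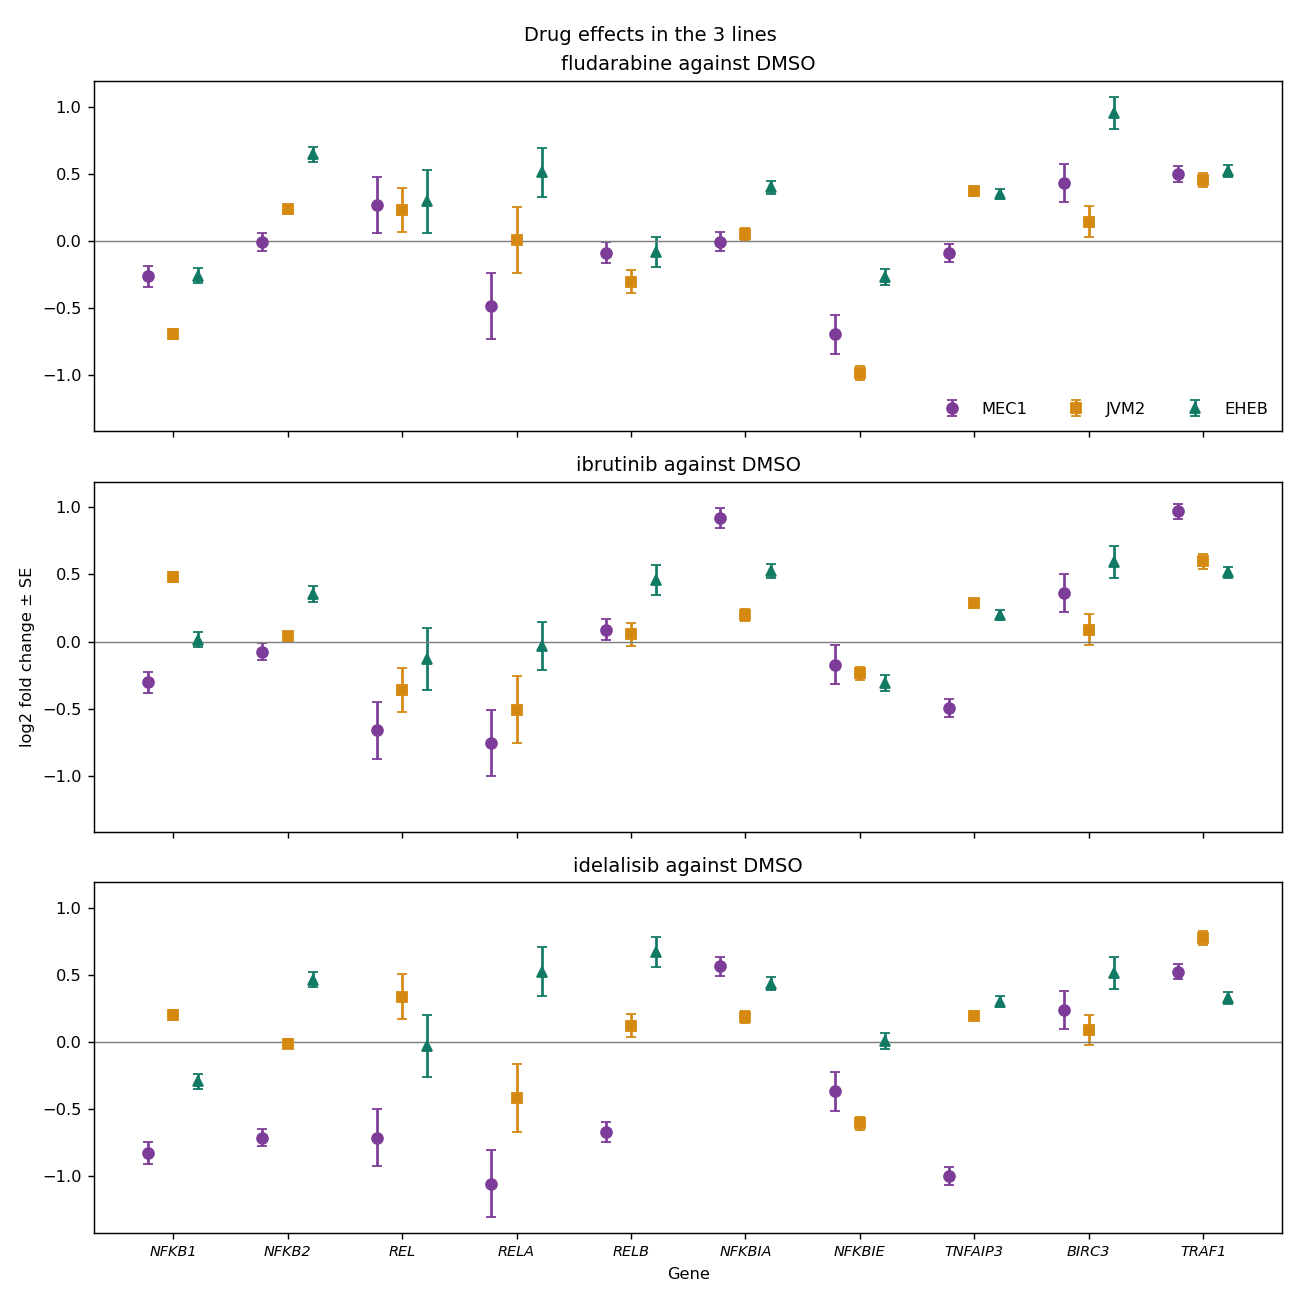
Log2 fold change against DMSO with its standard error for the 10 members, with 1 panel per drug and symbols for the 3 lines. In the idelalisib panel NFKB1, NFKB2, REL, RELA, RELB, NFKBIE and TNFAIP3 lie below 0 in MEC1, of which NFKBIE was not called. TRAF1 lies above 0 in each line of each panel.

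The other genes of the pathway were counted from 4 lists, of which 56 of 57 genes were tested in MEC1 and 57 in the other lines, and in the counts of calls with a drug a direction without calls is left out. The shares of all genes called higher and lower, beside which these counts stand, were 21.2% and 22.7% with fludarabine, 23.7% and 23.9% with ibrutinib and 27.6% and 27.4% with idelalisib in MEC1. They were 23.9% and 23.3% with fludarabine, 14.5% and 15.0% with ibrutinib and 21.6% and 22.6% with idelalisib in JVM2, and 18.4% and 19.2% with fludarabine, 8.5% and 11.2% with ibrutinib and 15.1% and 18.2% with idelalisib in EHEB. The medians of the log2 changes of all genes with fludarabine, ibrutinib and idelalisib were 0.056, 0.060 and 0.081 in MEC1, 0.056, −0.0014 and 0.026 in JVM2 and 0.020, 0.0095 and 0.013 in EHEB. Comparisons of a line share its DMSO libraries, so tallies over the 9 comparisons are a description without a test.
Among 19 receptors and adaptors, TNFRSF13B, which encodes the BAFF and APRIL receptor TACI, fell in each comparison with DMSO, with −1.94 ± 0.063 (SE) with fludarabine in JVM2 as the largest change, and 0.718% of the genes tested in all 9 were called lower in each. TNFRSF13C, the BAFF receptor gene, fell with fludarabine in MEC1 (−0.85 ± 0.052), JVM2 (−1.45 ± 0.042) and EHEB (−1.60 ± 0.063), and rose with both ibrutinib (0.61 ± 0.052) and idelalisib (0.55 ± 0.052) in MEC1. In JVM2 it fell with both (−0.33 ± 0.042 and −0.42 ± 0.042), and in EHEB it fell with ibrutinib (−0.38 ± 0.062) and rose with idelalisib (0.20 ± 0.062). TNFRSF1B, the gene of TNF receptor 2, fell in 8 of 9 comparisons, and fludarabine in JVM2 gave −0.065 ± 0.054. MALT1, which encodes a protease of the adaptor complex, rose in 7 of 9, most with idelalisib in JVM2 (1.15 ± 0.14), and was at 0.19 ± 0.084 with fludarabine and 0.20 ± 0.084 with idelalisib in MEC1, neither of which was called. Of the tested receptors and adaptors, 4 higher with 7 lower were called with fludarabine, 7 higher with 7 lower with ibrutinib, and 4 higher with 6 lower with idelalisib in MEC1. These counts were 4 higher with 5 lower, 5 higher with 5 lower, and 4 higher with 3 lower in JVM2, and 5 higher with 8 lower, 3 higher with 4 lower, and 4 higher with 7 lower in EHEB. The share of the receptors and adaptors called was above that of all genes in 6 of 9 comparisons for higher and 8 of 9 for lower calls. Their median log2 changes with the drugs in the same order were −0.010, −0.033 and −0.049 in MEC1, −0.15, 0.10 and 0.086 in JVM2 and −0.23, −0.0032 and −0.077 in EHEB.
Among the 7 kinases, IKBKE rose in 8 of 9 comparisons, by 1.59 ± 0.079 with ibrutinib and 1.46 ± 0.079 with idelalisib in MEC1, and fludarabine in EHEB gave 0.021 ± 0.067. IKBKB, the beta subunit of the IkB kinase, rose in 7 and fell in 1, with 0.90 ± 0.061 with idelalisib in JVM2 and −0.36 ± 0.077 with fludarabine in MEC1. TBK1, a relative of IKBKE, rose in 4, at most with fludarabine in JVM2 (0.52 ± 0.046), and MAP3K7, which activates the IkB kinase, rose in 4 comparisons, at most by 0.37 ± 0.083 with fludarabine in JVM2. The kinase list had 2 higher with 1 lower, 4 higher, and 3 higher with 2 lower with fludarabine, ibrutinib and idelalisib in MEC1, 5 higher, 3 higher, and 5 higher in JVM2, and 2 higher, 1 higher, and 3 higher in EHEB. The share of the kinases called was above that of all genes in 9 of 9 comparisons for higher and 1 of 9 for lower calls. With 7 genes, 1 higher call was enough to exceed the 8.5% of all genes with ibrutinib in EHEB. Their median log2 changes with the drugs in the same order were 0.10, 0.29 and 0.12 in MEC1, 0.52, 0.16 and 0.32 in JVM2 and 0.11, 0.22 and 0.12 in EHEB.
Among 10 other inhibitors, NFKBIZ, an atypical nuclear IkB gene, rose with fludarabine in MEC1 (0.84 ± 0.15), JVM2 (0.55 ± 0.18) and EHEB (0.74 ± 0.16). It also rose with both kinase inhibitors in EHEB and with idelalisib in MEC1, and fell with ibrutinib in JVM2 (−0.54 ± 0.18). BCL3, a nuclear IkB that binds p50 and p52 dimers, fell with ibrutinib (−0.96 ± 0.16) and idelalisib (−0.98 ± 0.16) in MEC1 and rose with fludarabine there (0.49 ± 0.16). It also rose with fludarabine in EHEB (0.54 ± 0.063) and fell with both kinase inhibitors in JVM2 (−0.28 ± 0.10 and −0.31 ± 0.10). NFKBID fell with all drugs in JVM2 (fludarabine −0.80 ± 0.073) and rose with fludarabine (0.42 ± 0.13) and ibrutinib (0.35 ± 0.13) in MEC1. OTULIN, which cleaves linear ubiquitin chains, fell with all drugs in MEC1 (idelalisib −0.49 ± 0.078) and with fludarabine in EHEB (−0.14 ± 0.049), and rose with fludarabine in JVM2 (0.14 ± 0.043) and with idelalisib in JVM2 (0.26 ± 0.043) and EHEB (0.24 ± 0.049). Of these inhibitors 5 higher with 2 lower, 2 higher with 4 lower, and 1 higher with 5 lower were called with fludarabine, ibrutinib and idelalisib in MEC1, 5 higher with 2 lower, 4 lower, and 1 higher with 4 lower in JVM2, and 7 higher with 1 lower, 3 higher, and 5 higher in EHEB. The share of the inhibitors called was above that of all genes in 5 of 9 comparisons for higher and 4 of 9 for lower calls. Their median log2 changes with the drugs in the same order were 0.29, −0.091 and −0.40 in MEC1, 0.17, −0.15 and −0.0035 in JVM2 and 0.48, 0.18 and 0.27 in EHEB.
Among 21 other known targets, the lymphotoxin gene LTB had the widest range of the 4 named, up with idelalisib in EHEB (3.12 ± 0.19) and down with fludarabine in JVM2 (−2.04 ± 0.17). These changes start from low levels of LTB, with means of 2.13 CPM with DMSO and 18.6 CPM with idelalisib in EHEB. In JVM2 the means were 2.16 CPM with DMSO and 0.525 CPM with fludarabine. It rose with both kinase inhibitors in each line and fell with fludarabine in EHEB (−1.04 ± 0.20). The chemokine gene CCL3 fell with ibrutinib and idelalisib in EHEB (−2.06 ± 0.065 and −2.22 ± 0.065) and rose with fludarabine in JVM2 (1.26 ± 0.040). It also fell with both in JVM2 (−0.56 ± 0.039 and −0.67 ± 0.039), and in MEC1 it fell with ibrutinib (−0.62 ± 0.090) and rose with fludarabine (0.88 ± 0.090) and idelalisib (0.35 ± 0.090). JUNB, a subunit of the AP-1 factor, rose with fludarabine and fell with both kinase inhibitors in each line, from 0.79 with fludarabine to −0.96 with idelalisib in MEC1. CCL22 rose with fludarabine in MEC1 (1.55 ± 0.075) and EHEB (1.38 ± 0.067), and fell with ibrutinib (−0.25 ± 0.074) and idelalisib (−1.21 ± 0.075) in MEC1. Ibrutinib and idelalisib raised it in JVM2 (0.63 ± 0.056 and 0.45 ± 0.055) and EHEB (0.53 ± 0.066 and 0.30 ± 0.065). In vehicle-treated cells 19 of the 21 targets were lower and 2 higher in MEC1 than in JVM2, where 33.7% and 30.1% of all genes were called. Against EHEB, 18 were lower and 2 higher in MEC1, beside 35.8% and 31.6% of all genes. In MEC1, JVM2 and EHEB with fludarabine, the targets called were 14 higher, 13 higher with 5 lower, and 13 higher with 1 lower. With ibrutinib they were 10 higher with 5 lower, 5 higher with 6 lower, and 7 higher with 6 lower in these lines, and with idelalisib 9 higher with 5 lower, 5 higher with 11 lower, and 7 higher with 7 lower. The share of the targets called was above that of all genes in 9 of 9 comparisons for higher and 5 of 9 for lower calls. Their median log2 changes with fludarabine, ibrutinib and idelalisib were 0.54, 0.26 and 0.046 in MEC1, 0.47, −0.080 and −0.14 in JVM2 and 0.51, 0.10 and 0.063 in EHEB.

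The genes most alike to each member were sought by Pearson's r over the 12 group means of log2 CPM, centred on the mean of each line, among 9695 genes whose mean log2 CPM was 3 or more. The means of a line share its libraries, so r is a description without a test. TRAF1 was most like TRMT61A (r = 0.976) and DNAJB6 (r = 0.959), NFKB1 most like ANP32A (r = 0.976) and the pseudogene HNRNPLP2 (r = 0.964), and TNFAIP3 most like HTATSF1 (r = 0.969) and BCLAF1 (r = 0.965). NFKBIA was closest to ZNF181 (r = 0.951) and GATB (r = 0.949), NFKBIE to SMS (r = 0.959) and CUTC (r = 0.942), and NFKB2 to MAPKBP1 (r = 0.916) and UTP3 (r = 0.914). For RELB these were FIP1L1 (r = 0.939) and CEP63 (r = 0.938), for BIRC3 C1orf131 (r = 0.913) and MED19 (r = 0.880), for REL NFATC2 (r = 0.925) and COPS8 (r = 0.923), and for RELA IDS (r = 0.975) and DCUN1D2 (r = 0.960). Among the members themselves r ranged from −0.66 between NFKBIA and REL to 0.87 between NFKB2 and TNFAIP3, and it was 0.78 between NFKBIA and TRAF1.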

How the data were processed

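RNA of 36 libraries was sequenced after depletion of ribosomal RNA. The authors trimmed reads with Trimmomatic, aligned them with HISAT2 2.1 to GRCh38 and estimated counts per gene with StringTie 1.3.4 on the Ensembl annotation. The deposited values are these estimated (expected) counts, written as whole numbers and not normalised. For strand and annotation release, the sources used here give nothing. Library totals were 26590705 to 53538925, and intervals on such counts would cover counting error only. The entry without a symbol, 0.00384% of counts, was left out.

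Libraries were grouped by their labels. For each line, 12 libraries were fitted with edgeR 4.0.16 in R 4.3.3 (TMM scaling, filterByExpr with a minimum count of 10 and a minimum total of 15, quasi-likelihood F-test, two-sided). P values were adjusted by Benjamini-Hochberg over all genes tested, and a gene was called at an adjusted p under 0.05. The 18 libraries of a drug and DMSO gave the interaction of line and drug, and the 9 DMSO libraries the comparison of lines. Errors of log2 changes are standard errors derived from the F statistic. Values in CPM were computed from the counts with TMM, except that the marker sums used library size alone. 1 gene of the receptor list and 1 B-cell marker are not reported here and were left out of counts and sums. The fits were tested on simulated data. Alternatives were library size scaling, other filters, DESeq2 1.42.0, limma-voom 3.58.1, counts divided by 8/3, other sets of libraries in the fit and each library left out in turn. Chi-square per degree of freedom was 27.2 to 53.6 in the 36 pairs of libraries of a group, so that none was counted as a repeat. Figures were drawn with matplotlib 3.10.9 in Python 3.11.15.

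The members, lists and tests were chosen with earlier results of these data known. All 10 members are named, with at most 4 genes of each list, those called in the most comparisons with DMSO and, among ties, with the larger median absolute log2 change, and the 2 genes most alike to each member.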

Additional observations from a re-analysis of the deposited data

Results flagged for a closer look

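The interaction of line and drug was called for 6 members with fludarabine, 6 with ibrutinib and 8 with idelalisib. Of all genes, 39.1%, 33.6% and 45.7% were called. Each such result is given here as the largest of the 3 pairwise differences of log2 changes. With fludarabine the interaction was called for NFKB1 at 0.46 for MEC1 minus JVM2 (adjusted p of the interaction = 6.67e-05) and NFKB2 at −0.58 for MEC1 minus EHEB (adjusted p of the interaction = 9.09e-06). It was also called for NFKBIA at −0.33 for MEC1 minus EHEB (adjusted p of the interaction = 0.0196) and NFKBIE at 0.67 for EHEB minus JVM2 (adjusted p of the interaction = 0.0108). Further results were TNFAIP3 at −0.43 for MEC1 minus JVM2 (adjusted p of the interaction = 0.000204) and BIRC3 at 0.77 for EHEB minus JVM2 (adjusted p of the interaction = 0.0133). With ibrutinib the interaction was called for NFKB1 at −0.81 for MEC1 minus JVM2 (adjusted p of the interaction = 3.39e-05) and NFKB2 at −0.44 for MEC1 minus EHEB (adjusted p of the interaction = 0.00348). It was also called for RELB at 0.39 for EHEB minus JVM2 (adjusted p of the interaction = 0.0429) and NFKBIA at 0.70 for MEC1 minus JVM2 (adjusted p of the interaction = 4.89e-05). Further results were TNFAIP3 at −0.80 for MEC1 minus JVM2 (adjusted p of the interaction = 1.58e-06) and TRAF1 at 0.45 for MEC1 minus EHEB (adjusted p of the interaction = 0.00127). With idelalisib the interaction was called for NFKB1 at −1.09 for MEC1 minus JVM2 (adjusted p of the interaction = 2.27e-08) and NFKB2 at −1.22 for MEC1 minus EHEB (adjusted p of the interaction = 1.64e-08). It was also called for RELA at −1.62 for MEC1 minus EHEB (adjusted p of the interaction = 0.000987) and RELB at −1.39 for MEC1 minus EHEB (adjusted p of the interaction = 9.47e-07). Others were NFKBIA at 0.31 for MEC1 minus JVM2 (adjusted p of the interaction = 0.0158) and NFKBIE at 0.59 for EHEB minus JVM2 (adjusted p of the interaction = 0.014). Further results were TNFAIP3 at −1.34 for MEC1 minus EHEB (adjusted p of the interaction = 2.38e-09) and TRAF1 at −0.47 for EHEB minus JVM2 (adjusted p of the interaction = 4.98e-05). The rises and falls behind these differences are given with each gene above, exposure time cannot be told apart from line, and explanations were not tested.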

How the results depend on the processing

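Each comparison was recomputed with the alternatives, and 154 of 156 counts of called members stayed within 1.5 times the reported count. The exceptions were idelalisib against ibrutinib in EHEB, with 5 members over genes with a mean of at least 5 CPM and 5 with DESeq2, against 3. With 1 library left out, fludarabine in MEC1 gave 2 to 5 called members, with 2 without the first or the second fludarabine library, against 4. Of single members' values, 1508 kept their side of the threshold, 27 gained and 23 lost a call, and 2 reversed. Those reversed were NFKB2 (0.24) and NFKBIA (0.24) with fludarabine in MEC1 under library size scaling, where both were called. The cause was not tested. With 1 library left out, 1718 stayed, 18 gained and 64 lost a call. The 1508 and 1718 include uncalled values that changed sign, 31 in the alternatives, up to 0.16 in size, and 38 with a library left out, up to 0.19. Library size scaling also moved called values by over 1.5 times without a loss of the call, with fludarabine for NFKBIE (−0.45) and BIRC3 (0.68) in MEC1, TNFAIP3 (0.57) in JVM2, and NFKB1 (−0.15) and NFKBIE (−0.16) in EHEB. The same held with idelalisib for NFKBIA (0.29) and TNFAIP3 (0.30) in JVM2 and NFKB1 (−0.19) in EHEB, with ibrutinib for TNFAIP3 (0.30) in EHEB, and for NFKB1 in vehicle-treated MEC1 against EHEB (−0.23). Each member had at least 1120 counts in a library, whereas the spread of REL and RELA between libraries was wide and several of their calls were lost without 1 library. No paired analysis was possible because the libraries of different groups share no numbers. In comparisons with DMSO, none of the alternatives can tell a kinase inhibitor apart from its separate library series, which holds no DMSO library.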
